A study of Mus musculus with 6 samples.

Results

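The sirtuins are the NAD+-dependent protein deacylases of the cell. They were taken from the table of normalized counts by their symbols, *Sirt1* to *Sirt7*, which gave 7 of the 26264 genes in the table. Their transcripts were compared between WT and *Irf1-/-* hematopoietic stem cells (HSCs) to ask whether loss of the transcription factor IRF1 changed them. RNA was sequenced from HSCs sorted from untreated female mice at 8 weeks of age, with 3 WT libraries and 3 *Irf1-/-* libraries, each from 1 mouse. WT mice were C57Bl/6, and the knockout mice carried the targeted *Irf1 tm1Mak* allele on a B6.129S2 background. The allele was inherited through the germline, so every cell of these mice lacked the intact gene, and a change within HSCs cannot be told apart from one that follows from other cells. HSCs were sorted from bone marrow as lineage-negative cells positive for Sca-1, Kit and CD150 and negative for CD48. The labels give the libraries of a genotype the numbers 1 to 3 in their titles but 2 to 4 in their descriptions and in the column names, and the latter numbers are used here.

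Reads on genes were 59658080, 45332573 and 43267486 in WT replicates 2, 3 and 4, and 43138521, 57281017 and 45129929 in the *Irf1-/-* replicates in the same order. Values below are normalized counts, that is, reads on a gene divided by 1 size factor per library. *Irf1* itself had normalized counts of 10122, 11120 and 12057 in WT HSCs and 9267, 9524 and 9287 in *Irf1-/-* HSCs. The genotypes did not overlap, but *Irf1* was not called (log2 fold change −0.24, SE 0.088, adjusted *P* = 0.170, limma). Reads from the removed and the remaining parts of the allele were not separated in counts per gene, so this level does not check the genotype labels.

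The sorted cells carried the HSC markers in all 6 libraries. *Kit* had a mean normalized count of 82378, and all 10 listed HSC markers were detected, from *Hoxb5* with 452 to 644 upward. The globin genes *Hbb-bs*, *Hbb-bt* and *Hba-a1* were at 0 in each library, and *Cd3e*, *Cd3g*, *Cd8a* and *Pax5* were too low to be tested. Whether the globin zeros reflect absent RNA or the counting of closely related gene copies was not tested. Some other members of the erythroid, T and NK cell and B cell lists were higher in each library. *Cd79b* had 2521 to 2952, *Nkg7* 2174 to 3209, *Klrb1c* 394 to 837 and *Cd4* 116.9 to 340.5. *Epor* had 1594 to 2510 and *Klf1* 569.5 to 1396. WT replicate 4 stood apart. Its normalized counts of the neutrophil genes *S100a8* and *S100a9* were 1033 and 1246, while the other 5 libraries had 13.5 to 110.0 and 10.1 to 130.8. *Ly6g* was at 46.3 in that library and at most 1.07 in the others. The summed normalized count of the 8 granulocyte and monocyte markers was 24376, 31500.5 and 30380.4 in WT libraries and 27790.5, 33400.5 and 29633 in *Irf1-/-* libraries, with *Lyz2* the most abundant, so this sum did not set WT replicate 4 apart. Without WT replicate 4, log2 fold changes (*Irf1-/-* over WT) of *Sirt1*, *Sirt6*, *Sirt7* and *Sirt2* were −0.11, −0.07, −0.16 and −0.16. Those of *Sirt3*, *Sirt4* and *Sirt5* were 0.21, 0.12 and −0.05.

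Sirtuins remove acetyl and other acyl groups from lysines and consume NAD+ in each reaction, which ties their activity to the metabolic state of the cell. SIRT1, SIRT6 and SIRT7 act mainly in the nucleus, SIRT2 mainly in the cytoplasm, and SIRT3, SIRT4 and SIRT5 in mitochondria. In HSCs, SIRT1, SIRT3 and SIRT7 are known for roles in stress resistance and in maintenance of the stem cell pool during aging.

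No sirtuin transcript was called different between the genotypes. A gene was called when its adjusted *P* was under 0.05 and its log2 fold change was above 0.58 or below −0.58. All 7 sirtuins were abundant enough to be tested, and limma called 0 of 7, with 0 at an unadjusted *P* under 0.05. edgeR and DESeq2 on recovered reads also called 0 of 7, each with 0 at an unadjusted *P* under 0.05. Among all 17404 tested genes, 333 (1.91%) were called, of which 167 (0.96%) were higher and 166 (0.954%) lower in *Irf1-/-* HSCs, and 561 (3.22%) had an adjusted *P* under 0.05 at any fold change. An unadjusted *P* under 0.05 was found for 2863 of all tested genes (16.5%). This share is for limma with all libraries and is not given for the other fits. *Sirt3* was also under 0.05, unadjusted, with quantile normalization, with scaling by total reads, with replicate number as a block, without WT replicate 4 and without *Irf1-/-* replicate 2, though never called. At the background rate, a family of 7 genes with 0 calls is no result about the sirtuins. What limma with all libraries gives is a bound, since its 95% intervals of all 7 log2 fold changes lay between −0.42 and 0.49, inside the threshold used for calls. These intervals hold for each gene alone, not for the 7 together, and intervals of the other fits are not given. Genotypes did not overlap in 1 of 7 sirtuins, *Sirt4*, against 19.9% of tested genes. The median log2 fold change was −0.04 for sirtuins and −0.0028 for all tested genes. For sirtuins it was −0.02 with quantile normalization, 1.11e-04 with scaling by total reads and −0.07 without WT replicate 4. Of the 7 estimates, 5 were below 0 and 2, those of *Sirt3* and *Sirt4*, were above 0. With libraries scaled by their total reads in place of size factors, 3 were below 0 and 4 above, because those of *Sirt5* and *Sirt7* crossed 0. That scaling also moved the median of all tested genes, to 0.04, so these crossings are no result about the 2 genes. The number of genes called in the whole table moved with single libraries, to 304 higher and 265 lower without WT replicate 4, to 102 and 105 without WT replicate 3, to 104 and 137 without *Irf1-/-* replicate 2, and to 83 and 121 without *Irf1-/-* replicate 4, and in each of these fits no sirtuin was called.

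Of the nuclear sirtuins, *Sirt1* encodes the deacetylase of p53, FOXO proteins and histones. Its normalized counts were 1904, 1971 and 1696.5 in WT HSCs and 1762, 1875 and 1746 in *Irf1-/-* HSCs. All *Irf1-/-* values lay within the WT range. The mean level in *Irf1-/-* HSCs reached 96.6% of that in WT HSCs (log2 fold change −0.05, SE 0.10, 95% interval −0.27 to 0.18, adjusted *P* = 0.893). This estimate became −0.11 when WT replicate 4 was left out, and −0.0031 when WT replicate 3 was.

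*Sirt6* encodes a chromatin deacylase that acts in DNA repair and at telomeres. It had normalized counts of 585, 725 and 687 in WT HSCs and 677, 542 and 657 in *Irf1-/-* HSCs. The lowest library was *Irf1-/-* replicate 3, and the other *Irf1-/-* libraries lay within the WT range. The log2 fold change was −0.09 (SE 0.15, 95% interval −0.42 to 0.24, adjusted *P* = 0.849), and without *Irf1-/-* replicate 3 it was 0.0085. *Sirt6* had the fewest reads of the family, 627 to 711 per library, and the widest confidence interval was that of this gene.

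*Sirt7* encodes a deacetylase of histone H3 found largely in the nucleolus. Its normalized counts were 6957, 7144 and 5580.1 in WT HSCs and 6308, 6392 and 6285 in *Irf1-/-* HSCs. WT replicate 4 was the lowest of the 6 libraries, and all *Irf1-/-* values lay between it and the other WT libraries. The spread on the log2 scale was 0.20 (SD, n = 3) in WT HSCs and 0.013 (SD, n = 3) in *Irf1-/-* HSCs. The log2 fold change was −0.04 (SE 0.10, 95% interval −0.26 to 0.17, adjusted *P* = 0.899). Leaving out WT replicate 4 gave −0.16, and leaving out WT replicate 3 gave 0.02.

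*Sirt2* encodes the cytoplasmic deacetylase of tubulin. It had normalized counts of 3213.5, 3172 and 3020 in WT HSCs and 2613, 3087.5 and 2892 in *Irf1-/-* HSCs. The WT libraries were close to each other, and *Irf1-/-* replicate 3 lay among them while the other *Irf1-/-* libraries lay below. The mean level in *Irf1-/-* HSCs reached 91.4% of that in WT HSCs (log2 fold change −0.13, SE 0.10, 95% interval −0.34 to 0.07, adjusted *P* = 0.566). This was the most negative estimate of the family, and leaving out 1 library in turn moved it between −0.07 (*Irf1-/-* replicate 2 out) and −0.19 (*Irf1-/-* replicate 3 out).

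Of the mitochondrial sirtuins, *Sirt3* encodes the main protein deacetylase of the matrix. Its normalized counts were 9841, 9455 and 10510.5 in WT HSCs and 10208, 12102 and 11219 in *Irf1-/-* HSCs. The genotypes overlapped only because WT replicate 4 exceeded *Irf1-/-* replicate 2. The mean level in *Irf1-/-* HSCs reached 112.5% of that in WT HSCs (log2 fold change 0.17, SE 0.090, 95% interval −0.03 to 0.36, adjusted *P* = 0.399). *Sirt3* had the smallest adjusted *P* of the family. Leaving out *Irf1-/-* replicate 3 gave 0.11, and leaving out *Irf1-/-* replicate 2 gave 0.23.

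*Sirt4* encodes a mitochondrial enzyme with ADP-ribosyltransferase and lipoamidase activity that restrains glutamate dehydrogenase and pyruvate dehydrogenase. It had normalized counts of 903, 978.2 and 785 in WT HSCs and 1105.5, 978.2 and 994.5 in *Irf1-/-* HSCs. The genotypes did not overlap only because *Irf1-/-* replicate 3 lay above WT replicate 3 by less than the last digit printed. The log2 fold change was 0.21 (SE 0.13, 95% interval −0.07 to 0.49, adjusted *P* = 0.488), and 0.12 without WT replicate 4, the lowest library.

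*Sirt5* encodes the mitochondrial desuccinylase and demalonylase. It had normalized counts of 1071, 1247.5 and 1080.1 in WT HSCs and 1043, 1207 and 1107 in *Irf1-/-* HSCs. Replicate 3 was the highest library in both genotypes, and the ranges overlapped almost completely. The mean level in *Irf1-/-* HSCs reached 98.7% of that in WT HSCs (log2 fold change −0.02, SE 0.12, 95% interval −0.28 to 0.25, adjusted *P* = 0.971). It was 0.05 without WT replicate 3 and −0.07 without *Irf1-/-* replicate 3.

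Levels were compared between sirtuins as normalized counts per kilobase of the longest coding transcript. *Sirt3* was the highest in each of the 6 libraries, with means of 6801 in WT and 7650 in *Irf1-/-* HSCs, and ranked at the 97.2 percentile of the 13862 tested genes with a known length. *Sirt7* followed with 3799 and 3664 (92.1 percentile), then *Sirt2* with 1701 and 1554 (78.7 percentile), and *Sirt5* with 780.3 and 770.5 (63.0 percentile). *Sirt4* had 495 and 572, *Sirt1* had 419 and 405, and *Sirt6* had 352 and 331, near the middle of all genes (55.3, 50.9 and 48.0 percentile). Each sirtuin was above the next within all 6 libraries. Over all libraries, however, the range of *Sirt4* overlapped that of *Sirt1*, and the range of *Sirt1* overlapped that of *Sirt6*, so the order of these neighbours rests on the comparison within libraries. The ratio of *Sirt3* to *Sirt7* within a library was 1.56 to 2.24, and that of *Sirt4* to *Sirt1* was 1.14 to 1.55. These values rest on the length chosen. With the combined exons of each gene as its length, an alternative chosen after seeing the data, the order was the same, but the ratio of *Sirt3* to *Sirt7* became 4.34 to 6.21, and that of *Sirt4* to *Sirt1* became 1.03 to 1.39.

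*Sirt3* alone made up 46.5%, 44.4% and 51.4% of the summed sirtuin level per kilobase in WT HSCs and 49.4%, 52.6% and 51.4% in *Irf1-/-* HSCs. The mitochondrial members together made up 55.1%, 54.1% and 59.9% in WT HSCs and 58.8%, 61.4% and 60.2% in *Irf1-/-* HSCs, which overlapped through WT replicate 4. *Sirt2* had a share of 12.03%, 11.8% and 11.7% in WT HSCs and 10.02%, 10.6% and 10.5% in *Irf1-/-* HSCs. This share did not overlap, although the level of *Sirt2* itself did, and the share also moves with *Sirt3*. With combined exons as length, the share of *Sirt3* was 62.9%, 60.8% and 66.8% in WT HSCs and 65.2%, 68.1% and 67.0% in *Irf1-/-* HSCs. That of the mitochondrial members was then 71.7%, 70.7% and 75.1% in WT HSCs and 74.6%, 76.6% and 75.7% in *Irf1-/-* HSCs, and *Sirt2* had 8.45% to 9.04% and 7.34% to 7.64%. No test was made of these shares.

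Among the 7 sirtuins, *Sirt1* and *Sirt7* varied most alike over the 6 libraries (Pearson *r* = 0.91 of log2 normalized counts), and *Sirt3* and *Sirt6* least alike (*r* = −0.62). All genes of a library share its size factor and both genotypes are pooled here, so these values are a description. Among the 12069 genes whose mean over all libraries reached 100 normalized counts, the pattern most like *Sirt1* was that of *Hp1bp3* (*r* = 0.992), followed by *Ptpn2* (0.992). For *Sirt7* it was *Pdxk* (0.992) and *Agap3* (0.992), and for *Sirt6* it was *Nufip2* (0.983) and *Impact* (0.979). *Acbd6* (0.993) and *Mrps12* (0.993) were closest to *Sirt2*. *Gimap1* (0.994) and *Ctsl* (0.990) were closest to *Sirt3*, *Grk3* (0.992) and *Tent5a* (0.988) to *Sirt4*, and *Arpc1a* (0.993) and *Wdr73* (0.992) to *Sirt5*. Each pair was picked for its *r* among 12069 genes over only 6 libraries, and no chance level was computed. High *r* values can arise from such a choice alone, so these pairs are a description too.

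The zinc-dependent histone deacetylases are the other deacetylase family and do not use NAD+. Of 11 tested, limma called 0 higher and 1 lower (0.96% and 0.954% of all tested genes), as did edgeR and DESeq2. Each had 1 at an unadjusted *P* under 0.05 (16.5% of all by limma), and the median log2 fold change was −0.07. Quantile normalization, scaling by total reads and leaving out WT replicate 4 each gave 2 under 0.05, with medians of −0.03, −0.02 and −0.12. *Hdac11*, which encodes an enzyme that removes long-chain fatty acyl groups, had normalized counts of 500.3, 471 and 577 in WT HSCs and 302, 290.3 and 314.5 in *Irf1-/-* HSCs. Each *Irf1-/-* library lay well below each WT library (log2 fold change −0.77, SE 0.17, adjusted *P* = 0.027). The call was narrow, since leaving out any 1 of the 6 libraries raised the adjusted *P* to between 0.052 and 0.080, and limma without the intensity trend gave 0.098. *Hdac2*, *Hdac4*, *Hdac5* and *Hdac7* had log2 fold changes between −0.20 and 0.11, or between −0.29 and 0.16 when 1 library was left out, and were not called. Whether *Hdac11* differed from the sirtuins in its response to the genotype was not tested.

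NAD+ supply genes also showed no call. Besides genes of NAD+ synthesis, the list of 23 held *Nadk*, *Nadk2*, *Nnt* and *Slc25a51* (NADP or transport), and *Nnmt* and *Aox1* (nicotinamide removal). Of the 23, 21 were tested (*Acmsd* and *Nnmt* were too low). limma, edgeR and DESeq2 each called 0 of them in either direction (1.91% of all tested genes by limma). Each had 2 at an unadjusted *P* under 0.05 (16.5% of all tested genes). The median log2 fold change was 0.02, or 0.07 with scaling by total reads. Without WT replicate 4 the median was also 0.07, with 5 genes under 0.05 (share of all genes in that fit not given). With all 6 libraries, 3 genes had no overlap between genotypes (19.9% of all). *Nampt*, the rate-limiting enzyme of the salvage pathway from nicotinamide, had 4115, 4831 and 4107 in WT HSCs and 3545, 3671 and 3298 in *Irf1-/-* HSCs. All *Irf1-/-* values were below all WT values (log2 fold change −0.31, SE 0.097, adjusted *P* = 0.109). *Naprt*, which starts the route from nicotinic acid, had 3358, 3739 and 3066 in WT HSCs and 4331, 4198 and 4364 in *Irf1-/-* HSCs, the opposite direction and again without overlap (0.35, SE 0.096, adjusted *P* = 0.069). Neither gene was called in any of the 16 alternatives, as the fold changes stayed under the threshold. The adjusted *P* of *Naprt* ranged from 0.015 to 0.316 over them and was under 0.05 by DESeq2 (0.015), with scaling by total reads (0.019), with quantile normalization (0.023) and with replicate number as a block (0.044). That of *Nampt* ranged from 0.037 to 0.392 and was under 0.05 by DESeq2 (0.037) and with replicate number as a block (0.046). *Afmid* (0.30, adjusted *P* = 0.407) and *Nmrk2* (1.05, adjusted *P* = 0.391) were further from it, the latter at only 21.4 to 180.2 normalized counts. The value of *Nmrk2* was 0.26 without WT replicate 2, 1.74 without WT replicate 4, and 0.65 by edgeR.

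Of 8 other enzymes listed that use NAD+, 7 were tested (*Bst1* was too low). limma, edgeR and DESeq2 called 0 of them (1.91% of all tested genes by limma). Each had 3 at an unadjusted *P* under 0.05 (16.5% of all tested genes). Their median log2 fold change was −0.02, or 0.02 with libraries scaled by total reads, −0.05 by edgeR and by DESeq2 and −0.04 without WT replicate 4, and 1 gene had no overlap (19.9% of all). That gene was *Tnks2*, which encodes a tankyrase (0.20, SE 0.079, adjusted *P* = 0.225). *Cd38*, the NAD+ glycohydrolase of the cell surface, had 831, 581.5 and 852 in WT HSCs and 1108, 826 and 1032 in *Irf1-/-* HSCs. *Irf1-/-* replicate 3 lay within the WT range (0.40, SE 0.17, adjusted *P* = 0.253), and the estimate was 0.22 without WT replicate 3. *Parp1*, the most abundant of them and the main poly(ADP-ribose) polymerase, was at −0.13 (adjusted *P* = 0.592), and *Parp3* at −0.36 (adjusted *P* = 0.248). Leaving out 1 library moved *Parp1* between −0.06 (WT replicate 3 out) and −0.22 (WT replicate 4 out), and *Parp3* between −0.21 (WT replicate 2 out) and −0.54 (WT replicate 3 out).

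Regulators and partners of sirtuins gave 0 calls in 13 tested by limma and DESeq2 and in 12 tested by edgeR. Among all genes tested by limma, 1.91% were called. Each fit had 2 members of the list at an unadjusted *P* under 0.05 (16.5% of all tested genes by limma). That number was 5 with quantile normalization and 4 with scaling by total reads, for which the share of all genes is not given. The median was 0.0068 on the log2 scale, 0.03 by edgeR and with quantile normalization, 0.05 with scaling by total reads and 0.014 without WT replicate 4, and 2 genes had no overlap (19.9% of all). *E2f1*, a transcriptional activator of *Sirt1*, was at −0.42 (adjusted *P* = 0.153), and of the 16 alternatives only leaving out WT replicate 4 made it a call (−0.59, adjusted *P* = 0.021), while leaving out WT replicate 3 gave −0.24 (adjusted *P* = 0.491). *Senp1*, a SUMO protease, was at −0.26 (adjusted *P* = 0.266), and at −0.16 without *Irf1-/-* replicate 4. *Usp22*, the deubiquitinase of the SAGA complex, was at 0.17 (adjusted *P* = 0.362), and the clock gene *Per2* at 0.25 (adjusted *P* = 0.370), which became 0.09 without WT replicate 4.

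Of 25 nuclear and cytoplasmic sirtuin substrates, limma called 1 higher and 0 lower (0.96% and 0.954% of all tested genes), with 7 at an unadjusted *P* under 0.05 (16.5% of all). DESeq2 also had 7 under 0.05, edgeR had 9, scaling by total reads 10, quantile normalization 11, and the fit without WT replicate 4 had 10. The share of all tested genes is not given for these fits, so 16.5% is no background for them. The median log2 fold change was −0.07, or −0.15 without WT replicate 4, −0.04 with quantile normalization and −0.02 with scaling by total reads, and 10 genes had no overlap (19.9% of all). *Ppargc1a*, which encodes the mitochondrial biogenesis coactivator PGC-1α and is a SIRT1 substrate, had 229, 151.0 and 287 in WT HSCs and 416, 376 and 426 in *Irf1-/-* HSCs. The genotypes did not overlap, and the gene missed the threshold (0.91, SE 0.24, adjusted *P* = 0.053). It was called in 4 of 16 alternatives, among them without WT replicate 4 (1.12, adjusted *P* = 0.016) and by DESeq2 (adjusted *P* = 0.0051). It was not called by edgeR (adjusted *P* = 0.068) or without any other library (adjusted *P* = 0.084 to 0.191), with 0.66 as the lowest estimate, without WT replicate 3. The forkhead factors *Foxo1* (0.31, adjusted *P* = 0.104) and *Foxo3* (0.42, adjusted *P* = 0.195, and 0.27 without *Irf1-/-* replicate 4) and the helicase *Wrn* (−0.35, adjusted *P* = 0.073) did not overlap either and were not called.

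Of 25 mitochondrial sirtuin substrates, 0 were called in either direction by limma, edgeR and DESeq2 (1.91% of all tested genes by limma). At an unadjusted *P* under 0.05 there were 5, 6 and 6 (16.5% of all by limma). By limma, 1 had an adjusted *P* under 0.05 (3.22% of all). Their estimates lay below 0 in 20 of 25, against 50.4% of all tested genes, with a median log2 fold change of −0.09, and 8 had no overlap (19.9% of all tested genes), all lower in *Irf1-/-* HSCs. With scaling by total reads or quantile normalization, 19 of 25 were below 0, with medians of −0.05 and −0.04. *Slc25a5*, which encodes an ADP/ATP carrier, had 36293, 40796 and 32681.5 in WT HSCs and 23639, 28178.5 and 24091 in *Irf1-/-* HSCs. All 3 *Irf1-/-* libraries were lower, and the adjusted *P* of 0.013 passed while the log2 fold change of −0.53 (SE 0.10) fell short of the threshold. It was called without WT replicate 4 (−0.61) or without *Irf1-/-* replicate 3 (−0.61). Its adjusted *P* no longer passed without *Irf1-/-* replicate 2 (0.075), *Irf1-/-* replicate 4 (0.095) or WT replicate 2 (0.0503), nor without the intensity trend (0.247). *Ppif*, the cyclophilin of the permeability transition (−0.33, adjusted *P* = 0.089), and the respiratory chain genes *Atp5o* (−0.30, adjusted *P* = 0.092) and *Ndufa9* (−0.25, adjusted *P* = 0.218) did not overlap and were not called.

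The mitochondrial stress response list held chaperones, proteases and other factors, among them *Atf4*. It gave 0 calls in 16 tested by limma, edgeR and DESeq2 (1.91% of all tested genes by limma). Each had 2 at an unadjusted *P* under 0.05 (16.5% of all tested genes). Of the 16, 14 lay below 0 (50.4% of all tested genes), with a median of −0.08. When libraries were scaled by total reads, 11 did so, with a median of −0.03. With all libraries, 3 of the 16 had no overlap (19.9% of all), each lower in *Irf1-/-* HSCs. Without WT replicate 4, 4 were under 0.05 (share of all genes in that fit not given) and the median was −0.12. *Hspd1* and *Hspe1*, the matrix chaperonin pair, were at −0.30 (adjusted *P* = 0.160) and −0.39 (adjusted *P* = 0.125), the latter without overlap. *Atf4* (−0.18, adjusted *P* = 0.344), also without overlap, and *Htra2* (−0.17, adjusted *P* = 0.420) were not called. *Lonp1*, which did not overlap either, belongs to this list and to the mitochondrial substrates.

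Proliferation markers were examined beside these lists. All 16 had estimates below 0 (50.4% of all tested genes), and their median on the log2 scale was −0.52. Of these, 11 had no overlap (19.9% of all tested genes), 5 had an adjusted *P* under 0.05 (3.22% of all), and 3 were called lower (0.954% of all). *Top2a*, the topoisomerase of dividing cells, fell from 13177, 12858.5 and 9810.1 to 7874, 8285 and 5166 (log2 fold change −0.77, SE 0.16, adjusted *P* = 0.018). *Mki67* (−0.67, adjusted *P* = 0.043) and *Aurkb* (−0.63, adjusted *P* = 0.037) also fell. Without the intensity trend limma called none of the 3 (adjusted *P* = 0.317, 0.365 and 0.350). Each of these calls depended on single libraries, since without *Irf1-/-* replicate 4 the adjusted *P* was 0.053 for *Top2a*, 0.168 for *Mki67* and 0.142 for *Aurkb*. Without WT replicate 4 the list had 11 called lower, in a fit that called 265 of all 17202 tested genes lower. *Top2a* also lost its call without WT replicate 2 (0.055) or 3 (0.067), *Mki67* without WT replicate 2 (0.143), WT replicate 3 (0.130) or *Irf1-/-* replicate 2 (0.125), and *Aurkb* without WT replicate 2 (0.109), WT replicate 3 (0.137) or *Irf1-/-* replicate 3 (0.056). The summed normalized count of the list, led by *Mcm2*, was 139577, 150142.5 and 108227 in WT HSCs and 98956, 103856 and 75601 in *Irf1-/-* HSCs. In bulk samples, fewer cells of a type and less RNA per cell cannot be told apart, and the part of cycling cells in the values of the mitochondrial lists was not tested.

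Markers of other cells gave the following. Of 5 megakaryocyte markers, 2 were called lower (0.954% of all tested genes), *Pf4* (−1.11, adjusted *P* = 0.0033) and *Gp1bb* (−0.90, adjusted *P* = 0.0032), with a list median of −0.56 and summed normalized counts, led by *Itga2b*, of 47319, 60305 and 45164 in WT HSCs and 40363, 24765 and 35754 in *Irf1-/-* HSCs. Of 3 tested erythroid markers, 1 was called lower (0.954% of all), *Klf1* (−0.72, adjusted *P* = 0.036), which was lost without replicate 2 or 3 of either genotype (adjusted *P* = 0.058 to 0.117), with scaling by total reads (0.066) and without the intensity trend (0.316). Among 10 HSC markers, 8 lay above 0 and 2 below (50.4% of all lay below), with a median of 0.24. Of these markers, 5 had no overlap (19.9% of all), 4 of them higher. By limma 6 had an unadjusted *P* under 0.05 (16.5% of all), and 9 with quantile normalization (share of all not given). Of the 10, 1 was called higher (0.96% of all), *Fgd5* (0.83, adjusted *P* = 9.13e-05). *Procr* (0.52) and *Ly6a* (−0.43), which encodes Sca-1, had adjusted *P* values of 0.011 and 0.025 under the fold threshold (3.22% of all had an adjusted *P* under 0.05). Without the intensity trend, limma did not call *Pf4* (adjusted *P* = 0.238), *Gp1bb* (0.187) or *Fgd5* (0.051). limma, edgeR and DESeq2 called 0 of 5 tested B cell markers, 0 of 4 tested T and NK cell markers and 0 of 7 tested granulocyte and monocyte markers (1.91% of all by limma). At an unadjusted *P* under 0.05 (16.5% of all) limma had 0, 1 and 0 of them, DESeq2 the same numbers, and edgeR 0, 1 and 2. The part of other cells in the sirtuin values was not tested.

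The genes beside and over the sirtuins were examined by their position in the GRCm38.p6 RefSeq annotation. *Ric8a* overlaps *Sirt3* and *Gm19897* overlaps *Sirt2*. *Mir6936*, with no reads in any library, overlaps *Sirt7*, and *Gm42007*, *Gm24265* and *Gm24407*, which were not analysed here, overlap *Sirt4*. As no strand setting is given for the counting, reads shared by such pairs cannot be told apart. *Ric8a* was estimated at 0.13 on the log2 scale (adjusted *P* = 0.527), in the direction of *Sirt3*. *Psmd13*, a proteasome subunit gene that starts 85 bases from the nearest *Sirt3* start on the opposite strand, was singled out after its values were seen. It had 6477, 6766 and 5833 in WT HSCs and 4402, 5294 and 4785 in *Irf1-/-* HSCs. No WT library was as low as any *Irf1-/-* library, whereas *Sirt3* went the other way (*Psmd13* log2 fold change −0.40, SE 0.097, adjusted *P* = 0.039, not called). The adjusted *P* of *Psmd13* was 0.0039 by DESeq2, 0.298 by limma without the intensity trend and 0.141 to 0.166 without WT replicate 2 or 3 or *Irf1-/-* replicate 2 or 4, and no fit called the gene. The log2 ratio of *Sirt3* to *Psmd13* was 0.60, 0.48 and 0.85 in WT HSCs and 1.21, 1.19 and 1.23 in *Irf1-/-* HSCs. The ratio was thus higher in each *Irf1-/-* library, with a spread of 0.19 (SD, n = 3) in WT and 0.018 (SD, n = 3) in *Irf1-/-* HSCs, and is given with no test because the pair was chosen for it.

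Promoter sequences of RefSeq (GRCm38.p6, 250 bases before to 50 after each start) were matched by symbol and gave 9 promoters for the 7 sirtuins. The letters GAAA, any 2 bases and again GAAA, the core of the element that IRF proteins bind, were searched on both strands and were in 0 of 9 sirtuin promoters, against 3.44% of all 32851 promoters. They were in 33 of 139 promoters (23.7%) of genes called lower, for which 117 of 166 genes matched. A match is a description of letters, and its absence says nothing of IRF1 binding elsewhere. To show the letters that the sirtuin promoters do not hold, the windows of the 3 genes called lower with the smallest *P* among those with a match are given, with the match in capitals, together with their log2 fold changes of −3.34, −4.13 and −5.91. They encode interferon-inducible GTPases, a family with closely related copies between which reads may be split, so their values are uncertain. WT (C57Bl/6) and knockout (B6.129S2) mice also differed in background, and the part of this difference in these values was not tested.
*Tgtp1*, chr11:48992306-48992331, minus strand, match starting 77 bases before the start: caggaatcGAAACTGAAAcctacctg
*Gm12185*, chr11:48927240-48927265, minus strand, 75 bases before: caggaataGAAAGTGAAAcctactct
*Gm12250*, chr11:58183744-58183769, plus strand, 91 bases before, match on the other strand: tcggtggcTTTCAGTTTCtatgccta

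Other motifs in the sirtuin promoters differed between members. The E-box CACGTG, which reads the same on both strands, was in 1 of 9 sirtuin promoters, that of *Sirt1*, with 2 matches, against 7.15% of all promoters. The letters TTGTAGT were in 2 of 9, those of *Sirt2* and *Sirt4*, against 3.24%. CCGGAAG was in 3 of 9 against 8.86%, CCAAT in 3 of 9 against 37.4%, and GGGCGG in 6 of 9 against 35.7%. The windows of the rarer letters upstream of the starts are given to show how the members differ, with the match in capitals.
*Sirt1*, chr10:63339137-63339158, minus strand, 115 bases before the start: cgcccggcCACGTGacccggcg
*Sirt1*, chr10:63339065-63339086, minus strand, 43 bases before: gggcgggtCACGTGacggggtt
*Sirt2*, chr7:28766678-28766700, plus strand, 66 bases before: tttgggatTTGTAGTttgataac
*Sirt4*, chr5:115484414-115484436, minus strand, 131 bases before: tctgggacTTGTAGTtttcttcc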

How the data were processed

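The authors deposited a signal, made from gene counts by dividing each library by its DESeq2 size factor. Per the submitters' notes, reads were trimmed with Trim Galore and aligned to mm39 with HISAT2, and the methods name HTSeq for counting. The annotation and strand setting are not given in the sources used here. All values (100%) were whole multiples, within 0.01, of the smallest value in their library, which gave whole reads. Replicate libraries differed by far more than sampling noise, with a mean chi-square per gene of 16.0 to 30.0, which covers counting error only, since the reads carry no molecular identifiers.

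The main test was limma 3.58.1 in R 4.3.3 with the prior variance following intensity, run on log2 of the normalized count plus 1, for 17404 genes with a mean of at least 10. This scale understates changes of low genes. *P* values were adjusted by the Benjamini-Hochberg method over all tested genes. edgeR 4.0.16 (quasi-likelihood test, TMM) and DESeq2 1.42.0 were run on the recovered reads, where edgeR called 162 genes higher and 161 lower, and DESeq2 299 and 211. The fits were tested on simulated data. Other pseudocounts, filters, normalizations, a replicate block and leaving out each library were alternatives.

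The members and lists were chosen with earlier results of these data known. The named genes were the 7 sirtuins, *Irf1*, in each list every called member and up to 4 others with the smallest adjusted *P*, and for each sirtuin the 2 genes with the highest Pearson *r*. The called gene of the nuclear and cytoplasmic substrates is counted but not reported here. The neighbouring genes, promoter motifs and levels per kilobase were chosen for description after values were seen. Transcript lengths came from the GENCODE vM1 annotation, an older build than that of the reads.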

Additional observations from a re-analysis of the deposited data

How the results depend on the processing

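No sirtuin was called under any of the 16 alternatives, and of the sirtuin values under them 105 kept their direction and 7 changed sign, all near 0. With scaling by total reads, *Sirt5* was at 0.026 and *Sirt7* at 1.11e-04, while the median of all genes was 0.04. Leaving out 1 library in turn gave log2 fold changes of −0.073 to 0.054 for *Sirt5*, −0.18 to 0.0085 for *Sirt6* and −0.16 to 0.022 for *Sirt7*, and for *Sirt7* 0.0032 without WT replicate 2. *Sirt5* also changed sign without *Irf1-/-* replicate 2 (0.032). The cause of these changes was not tested. *Sirt1*, *Sirt2*, *Sirt3* and *Sirt4* kept their direction under all 16.

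Over the whole table, limma without an intensity trend called 7 genes higher and 33 lower. DESeq2 called 299 higher, and dropping the fold threshold gave 301 higher and 260 lower. Leaving out 1 library in turn gave 83 to 304 higher and 105 to 265 lower. Of the genes in the 8 lists other than the sirtuins and the cell type markers, 1 was called higher and 4 lower. The number higher became 2 with a minimum mean of 100, with DESeq2 and with the replicate block, and 0 without the trend. The number lower became 0 without the trend. Leaving out 1 library in turn gave 0 to 2 higher and 0 to 13 lower, the last without WT replicate 4, where 265 genes of the whole table were called lower. *Irf1* and the named genes of the lists, 42 in all, stayed on their side of the threshold in 626 values, gained a call in 14, lost one in 32 and changed sign in 0.

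Whether the replicate numbers pair the libraries is not given by the labels, and not every pair deviated together. The deviations of same-numbered libraries correlated at *r* = −0.09, 0.25 and 0.15 for replicates 2, 3 and 4, with *Irf1-/-* replicates 3 and 4 closest to the WT library of their own number and *Irf1-/-* replicate 2 closest to WT replicate 4 (*r* = 0.25). With the replicate block, 219 genes were called higher and 196 lower, and no sirtuin was called.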
